A study of Mus musculus with 24 samples.

Results

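The genes described are 27 subunits of the ligand-gated ion channels that carry fast excitation and inhibition in the cortex: 4 AMPA receptor genes, 7 NMDA receptor genes, 5 kainate receptor genes, 1 delta receptor gene and 10 GABA-A receptor genes. They were taken by name from 52352 annotated genes in the frontal cortex data, all 27 were found, and 26 of the 18239 genes with enough reads to be tested were among them. Gabra6 was the member left out by the filter on low counts. Poly-A RNA from frontal cortex of 24 mice was sequenced in bulk, and the mice were bred as littermates from Grn+/- mice, which are heterozygous for the progranulin gene, and mice with an hTDP transgene, which carries human TDP-43. The 4 groups were Grn+/+ hTDP- and Grn+/+ hTDP+ mice, with both copies of Grn, and Grn+/- hTDP- and Grn+/- hTDP+ mice. Each group held 6 mice, 3 females and 3 males, each mouse giving 1 library, aged 9.44 to 10.79 months (Grn+/+ hTDP-), 9.44 to 10.07 months (both transgenic groups) or 8.19 to 10.79 months (Grn+/- hTDP-). The promoter of the transgene, the strain background and the litter of each mouse are not stated in the labels. The series title poses the question of an interaction between progranulin insufficiency and TDP-43 overexpression.

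Ionotropic receptors are channels built of several subunits around a pore that opens when transmitter binds. AMPA receptors, tetramers of the products of Gria1 to Gria4, carry most of the fast excitatory current. NMDA receptors pair the obligatory GluN1 subunit, encoded by Grin1, with GluN2 or GluN3 subunits and pass calcium when glutamate binding coincides with depolarization. Kainate receptors (Grik1 to Grik5) modulate transmission at many synapses, and the GluD1 protein encoded by Grid1 acts largely as a synaptic organizer. GABA-A receptors are pentamers, most often of alpha and beta subunits with a gamma or delta subunit, and conduct chloride. TDP-43 is an RNA-binding protein that regulates splicing, and progranulin is a secreted and lysosomal glycoprotein.

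Alternative exons give these subunits distinct channel properties, and 3 of them are shown because their use could be read from the deposited transcripts. Every AMPA subunit gene has a pair of mutually exclusive exons, flip and flop, which code for part of the ligand-binding domain and set how the channel desensitizes. In Gria1 and Gria2 each of these exons was 115 bases long, and flip and flop differed at 36 bases in either gene (68.7% identical). In the GENCODE M21 annotation of GRCm38, the Gria1 flip exon lies at chr11:57310608-57310722 and the flop exon at chr11:57309769-57309883 on the plus strand, and the Gria2 flip exon at chr3:80690404-80690518 and the flop exon at chr3:80691320-80691434 on the minus strand. The sequences run 5′ to 3′ on the coding strand, and capitals mark the bases that differ between flip and flop of the same gene.
Gria1 flip: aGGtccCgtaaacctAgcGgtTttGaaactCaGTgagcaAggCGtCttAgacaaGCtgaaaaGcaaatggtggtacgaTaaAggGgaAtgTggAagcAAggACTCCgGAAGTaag
Gria1 flop: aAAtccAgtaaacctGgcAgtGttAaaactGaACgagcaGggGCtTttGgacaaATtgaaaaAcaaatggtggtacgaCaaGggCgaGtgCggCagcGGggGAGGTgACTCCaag
Gria2 flip: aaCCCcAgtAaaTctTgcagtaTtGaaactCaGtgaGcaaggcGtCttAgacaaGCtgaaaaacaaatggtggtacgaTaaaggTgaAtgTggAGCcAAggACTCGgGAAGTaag
Gria2 flop: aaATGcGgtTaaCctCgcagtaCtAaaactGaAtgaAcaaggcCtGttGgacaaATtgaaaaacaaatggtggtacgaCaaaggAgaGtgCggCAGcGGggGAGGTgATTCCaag

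Grin1 has an N-terminal exon called N1 (63 bases, chr2:25311343-25311405, minus strand) and a C-terminal exon called C1 (111 bases, chr2:25294438-25294548, minus strand), which is known for carrying signals that keep the subunit in the endoplasmic reticulum. Both are coding exons that can be skipped, and their capitals mark the whole exon.
Grin1 N1: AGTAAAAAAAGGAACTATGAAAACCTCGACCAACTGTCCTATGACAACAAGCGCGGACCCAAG
Grin1 C1: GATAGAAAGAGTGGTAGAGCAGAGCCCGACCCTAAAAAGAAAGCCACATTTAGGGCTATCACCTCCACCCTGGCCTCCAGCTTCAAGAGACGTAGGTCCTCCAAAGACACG

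The labels were checked on Grn and Tardbp. Grn stood at 13.8 to 32.9 CPM (read counts scaled by TMM-adjusted library size) in the 12 Grn+/- mice and at 34.7 to 60.5 CPM in the 12 Grn+/+ mice, and mouse Tardbp at 91.1 to 116 CPM in transgenic and 137 to 150.5 CPM in other mice. Human TARDBP had 4328 to 8162 estimated reads in every transgenic library and at most 2 in any other. Excitatory neuron markers, 10 genes, summed to 6553 to 8095 CPM per library and were never at 0, as labelled for cortex. Libraries held 61445842 to 100859149 estimated reads, at which the median standard error of a member's log2 change was 0.0745 for 6 against 6 mice (0.0744 with the transgene present in both groups), 0.0527 for an average transgene effect and 0.105 for the interaction. The library of Grn+/+ hTDP+ replicate 2 stood apart, listing 40188 transcripts with any reads where every other library listed 65994 to 69846, and values that move without it are given beside the results. Bulk tissue does not tell fewer cells of a type from less RNA per cell.

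The obligatory NMDA subunit gene had the highest level of the set. On the TPM scale, which corrects for transcript length and so allows genes to be compared, Grin1 averaged 309 ± 21.2 TPM (SD, n = 24), followed by Gria2 at 189 ± 17.5, Gria1 at 145 ± 14.6, Grik5 at 141 ± 7.59 and Gria3 at 112 ± 8.66 TPM. Grin1 stood above all others in every library, since its lowest value of 267 TPM exceeded the highest Gria2 value of 219 TPM. The ranges of Gria1 and Grik5 overlapped, as did those of Gria3 and Gabra3 (106 ± 6.84 TPM), although Gria3 had the higher mean in each of the 4 groups. Genes were not tested against each other.

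**Figure D1:**
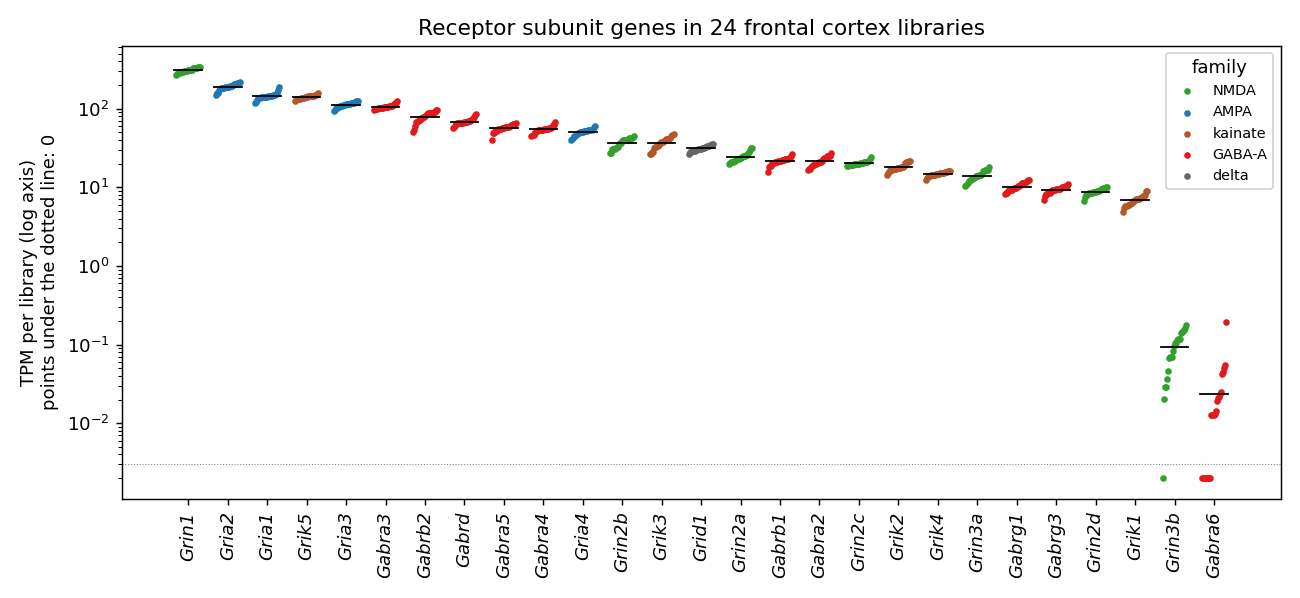
TPM of each receptor gene in each of 24 libraries (points, sorted within a gene), on a log axis, with the mean as a black line and the family as colour; values of 0 are drawn under the dotted line. Grin1 lies highest, at 267 to 343 TPM, while Grin3b and Gabra6 lie under 0.2 TPM in every library.

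Within the AMPA family, Gria2 made up 38.1% ± 1.37 (SD, n = 24) of the summed TPM. Its product, after RNA editing, makes the channel impermeable to calcium. Gria1, the subunit best known for activity-dependent insertion at synapses, held 29.2% ± 2.37, Gria3 22.6% ± 0.792 and Gria4 10.1% ± 0.864. The order of the 4 AMPA genes was thus Gria2, Gria1, Gria3, Gria4, and the lowest Gria2 share (35.3%) was above the highest Gria1 share (33.98%).

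Among the GluN2 genes, which set the kinetics of NMDA receptors, Grin2b held 40.7% ± 2.91 (SD, n = 24) of the summed TPM, Grin2a 26.8% ± 1.91, Grin2c 22.6% ± 2.27 and Grin2d 9.79% ± 1.11. Grin2b and Grin2a are the major GluN2 genes of the forebrain, and Grin2c is best known from cerebellar granule cells. The share of Grin2c overlapped that of Grin2a. Grin3a, whose product lowers the calcium flux of NMDA receptors, averaged 14.1 ± 2.04 TPM. Grin3b, the other GluN3 gene, was at 0.0926 ± 0.0496 TPM, and its annotated exons share 1059 bases with Tmem259 on the opposite strand, so its few reads are uncertain in origin.

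Kainate subunit TPM was dominated by Grik5, at 64.9% ± 2.36 (SD, n = 24). Grik5 and Grik4 encode the high-affinity subunits, which need a partner from Grik1 to Grik3 to form a channel. Grik3 held 16.8% ± 2.17, Grik2 8.30% ± 1.01, Grik4 6.80% ± 0.402 and Grik1 3.14% ± 0.429, so the partner genes together stood below Grik5 in these libraries. The delta receptor gene Grid1 averaged 31.3 ± 2.47 TPM.

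Of the 10 GABA-A genes, Gabra3 was highest at 106 ± 6.84 TPM (SD, n = 24), followed by Gabrb2 at 78.6 ± 12.5 TPM. Gabrb2 encodes a beta subunit common at synapses. Gabrd (68.4 ± 6.55 TPM), Gabra5 (56.6 ± 5.83) and Gabra4 (54.4 ± 5.17) encode subunits known mostly for receptors outside synapses, which carry tonic inhibition. The ranges of Gabra5 and Gabra4 overlapped each other and that of Gria4 (50.0 ± 5.07 TPM), although both had higher means than Gria4 in each of the 4 groups. Gabrb1 (21.5 ± 2.27 TPM) and Gabra2 (21.4 ± 2.93) were alike in level, and the gamma subunit genes Gabrg1 (10.2 ± 1.25) and Gabrg3 (9.28 ± 0.935) were lower. Gabra6, a subunit known from cerebellar granule cells, was at 0.0233 ± 0.0398 TPM.

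Neighbouring GABA-A genes had different levels. Gabra6 and Gabrb2 are neighbours on chromosome 11 (42306437 to 42321072 and 42419757 to 42629028), and their means were 0.0233 and 78.6 TPM. On chromosome 5 the cluster of Gabrg1, Gabra2, Gabra4 and Gabrb1 spans 70751047 to 72149037, with means of 10.2, 21.4, 54.4 and 21.5 TPM. Gabra4 and Gabrb1 lie head to head there and share 46 exonic bases on opposite strands.

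Mice of 1 group differed most in Grik3, with a residual SD of 0.248 on the log2 scale after group and sex, then in Grik1 (0.241), Grin2b (0.218), Gabrb2 (0.218), Grin3a (0.216) and Gabra2 (0.211), leaving out Grin3b with its near-zero counts. The steadiest members were Gabra3 (0.0767), Gria3 (0.0817), Gria2 (0.0843) and Grik5 (0.0887). Over 9813 tested genes above 10 CPM the median was 0.0977, with quartiles of 0.0725 and 0.138.

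No receptor gene passed the test in any of 9 comparisons by edgeR's quasi-likelihood test (Benjamini-Hochberg adjusted p under 0.05 over 18239 genes), and none did by DESeq2 or limma voom. In Grn+/+ mice, with the transgene against without, 0 of 26 members were called beside 0.0329% of all genes. Unadjusted p was under 0.05 for 2 members by edgeR, DESeq2 and limma voom alike, and both had lower values with the transgene, beside 3.23% of all genes lower at that level.

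Gabrb2 was the member of smallest p in that comparison. Its CPM ran from 159.5 through a median of 171.8 to 187.3 in Grn+/+ hTDP- mice and from 121.6 through 147.4 to 169.1 in Grn+/+ hTDP+ mice. Transgenic mice lay mostly lower, but 2 of the 6 reached into the range of the others. The log2 difference was -0.25 (95% CI -0.49 to -0.0079, unadjusted p = 0.0435, edgeR adjusted p = 0.627).

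Gabrb1, which encodes another beta subunit, ran from 140.2 through 156.2 to 171.3 CPM without the transgene and from 133.3 through 142.5 to 155.5 with it in Grn+/+ mice. The groups overlapped, and the log2 difference was -0.13 (edgeR adjusted p = 0.632). Gria2 differed by -0.081, Gria4 by -0.079 and Gria3 by -0.055 on the log2 scale, with adjusted p of 0.681, 0.737 and 0.768. Over all 26 tested members the median difference was -0.051, and 21 were below 0, among them all 4 AMPA and all 9 tested GABA-A genes, beside 49.7% of all genes and a median over all genes of 6e-04. Without Grn+/+ hTDP+ replicate 2, 24 members were below 0 with a median of -0.043, but no member had an unadjusted p under 0.05, and the difference of Gabrb2 was -0.20 (adjusted p = 0.939). With age as a factor in the model, no member had an unadjusted p under 0.05 either, with p of 0.0732 for Gabrb2 and 0.0816 for Gabrb1.

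In Grn+/- mice, with the transgene against without, 0 of the 26 members were called beside 0.0219% of all genes, and 0 had an unadjusted p under 0.05 by edgeR, DESeq2 or limma voom, beside 1.35% of all genes lower at that level. The 5 members of smallest p were Gria4 at -0.076, Gabrb2 at -0.096, Gria1 at 0.064, Grin2d at -0.052 and Gabra5 at 0.055 on the log2 scale, all with edgeR adjusted p of 1.0. Below 0 were 16 members, with a median of -0.012, beside 50.1% of all genes. With age in the model the median lay above 0, at 0.0041 with 10 members below 0 for a linear term and at 0.010 with 11 for a factor. Ages of 10.56, 9.14 and 8.19 months occurred only in Grn+/- hTDP- mice. The fit with a factor compares mice of those ages with no other group. Gabrb2 spread widely with the transgene, from 104.1 through 152 to 173.1 CPM, against 140.2 through 150.6 to 186.7 in Grn+/- hTDP- mice. Of the 6 Grn+/- hTDP+ mice, 3 lay between 104.1 and 134.9 CPM and 3 between 169.2 and 173.1 CPM. Gria4 ran from 77.2 through 86.8 to 93.3 CPM with the transgene and from 84.6 through 89.1 to 101.5 CPM without it, and these groups overlapped.

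**Figure D2:**
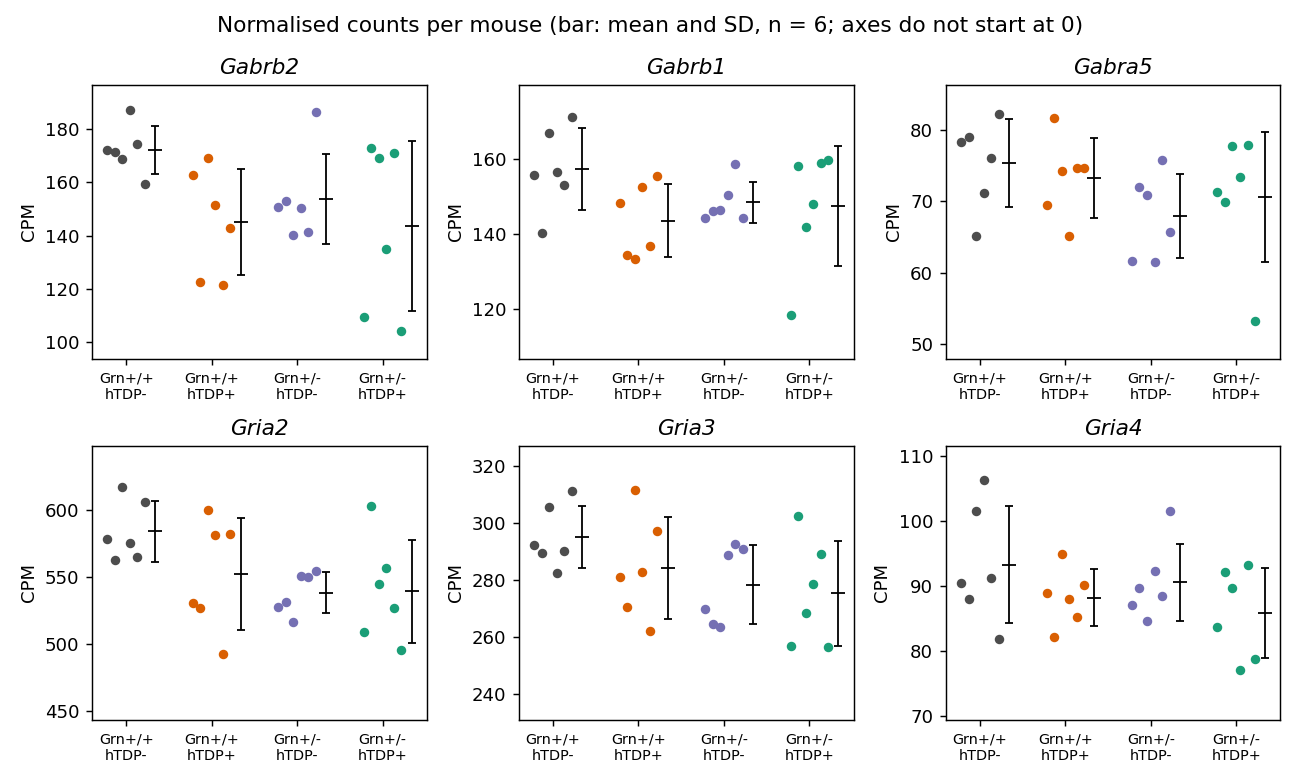
CPM of 6 receptor genes in each mouse (points) by group, with the mean and SD of 6 mice beside the points; the axes do not start at 0. All 6 Grn+/- hTDP- mice lie below all 6 Grn+/+ hTDP- mice in Gria2, and the groups overlap in the other 5 genes.

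Averaged over both Grn backgrounds, the transgene effect left 0 of 26 members called beside 0.11% of all genes by edgeR, 0.348% by DESeq2 and 0.11% by limma voom. Gabrb2 again had the smallest p, with a log2 difference of -0.17 (95% CI -0.34 to -0.0024, adjusted p = 0.630). It was the 1 member with an unadjusted p under 0.05 (0.0470), by each of the 3 tools, beside 4.24% of all genes lower at that level, and without Grn+/+ hTDP+ replicate 2 its p was 0.0891 with a difference of -0.15. With age as a linear term that p was 0.0583, with age as a factor 0.276, and with length-scaled TPM counts 0.0653. The fit with age as a factor uses few Grn+/- hTDP- mice, as given above. Over the 12 mice of each kind Gabrb2 averaged 144 ± 25.4 CPM with and 163 ± 16.2 CPM without the transgene. In Grn+/- mice its median was 152 CPM with and 150.6 CPM without the transgene, so the lower estimate there was not shared by the median. Replicate 6 of the Grn+/- hTDP- mice, at 186.7 CPM against 140.2 to 152.9 in the others, is marked below as apart from its group. The next members were Gria4 (-0.077, adjusted p = 0.671), Gabrb1 (-0.071, 0.705), Gria2 (-0.039, 0.805) and Gria3 (-0.035, 0.819).

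Of the 26 members, 19 were below 0 in the average transgene effect, with a median of -0.026, beside 48.4% of all genes and a median over all genes of 0.0031. By family these were 3 of 4 AMPA, 5 of 7 NMDA, 3 of 5 kainate and 8 of 9 tested GABA-A genes, and not Grid1, which stood at 0.022. Of the 7 NMDA genes, Grin1 was at -0.017, Grin2a at -0.043, Grin2b at -0.049, Grin2d at -0.051 and Grin3a at -0.045, Grin2c at 0.010, and Grin3b, from near-zero counts, at 0.13, the highest of the 26. The 95% CI of all 25 members other than Grin3b lay between -0.34 (Gabrb2) and 0.25 (Grik1), which as ratios are 0.79 and 1.19. These intervals hold for 1 gene at a time.

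Cell type markers were read in the transgene comparisons, and 0 markers of the lists given here passed the test. The average joins estimates of opposite sign for oligodendrocytes, although the medians of their summed CPM, given below, did not differ in direction. All 10 oligodendrocyte markers were above 0 for the transgene in Grn+/+ mice, with a median of 0.73 and 4 at an unadjusted p under 0.05, and all 10 were below 0 in Grn+/- mice, with a median of -0.16. Their average effect had a median of 0.29. Summed CPM of these markers ran from 1120 through a median of 1712 to 2789 in Grn+/+ hTDP- and from 1832 through 2569 to 3912 in Grn+/+ hTDP+ libraries. It ran from 1219 through 1651 to 5176 in Grn+/- hTDP- and from 1128 through 2072 to 2907 in Grn+/- hTDP+ libraries. By the median the sum was higher with the transgene in both backgrounds, so the negative estimates in Grn+/- mice were not shared by the median. The lower receptor estimates for the transgene in Grn+/+ mice stood beside higher oligodendrocyte markers in the same comparison, and the values were not matched mouse by mouse. Other lists were above 0 there too. Among them were all 5 tested choroid plexus and ependyma markers, from low counts (median 0.99, with 2 at an unadjusted p under 0.05). All 7 oligodendrocyte precursor markers (median 0.099) and all 5 blood cell genes (median 0.55) were also above 0.

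Of 10 excitatory neuron markers 9 were below 0 for the transgene in Grn+/+ mice (median -0.095) and 6 in Grn+/- mice (median -0.020). Their sums ran from 6890 to 8057, 6596 to 7736, 7003 to 7893 and 6553 to 8095 CPM in the group order above. Of 10 inhibitory neuron markers 6 were below 0 in Grn+/+ mice (median -0.022) and 8 in Grn+/- mice (median -0.022), with sums of 935 to 1109, 887 to 1122, 973 to 1097 and 959 to 1074 CPM. All 9 mural and meningeal markers were above 0 for the transgene in Grn+/+ mice (median 0.34) and 8 in Grn+/- mice (median 0.021), with sums of 118 to 153, 132 to 182, 133 to 179 and 145 to 203 CPM. No oligodendrocyte, excitatory neuron, inhibitory neuron or mural and meningeal marker was at 0 in any library. The part of any marker list in the receptor values was not tested.

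Loss of a Grn copy without the transgene left 0 of 26 members called beside 0.011% of all genes. Gria2 was the 1 member with an unadjusted p under 0.05 (0.0228) by edgeR, DESeq2 and limma voom, beside 1.63% of all genes lower at that level. Its CPM ran from 562.2 through 576.6 to 616.8 in Grn+/+ hTDP- mice and from 516.6 through 540.4 to 554.2 in Grn+/- hTDP- mice. The groups did not overlap, as held in this direction for 0.285% of all genes and for no other member, and the log2 difference was -0.12 (95% CI -0.22 to -0.018, edgeR adjusted p = 1.0). Gabra5 differed by -0.15, Gria3 by -0.085, Gabra4 by -0.081 and Gabrb2 by -0.16, each with an adjusted p of 1.0. Gabra5 ran from 65.2 through 77.2 to 82.2 CPM in Grn+/+ and from 61.5 through 68.3 to 75.8 CPM in Grn+/- mice, which overlapped. Below 0 were 19 members, beside 46.1% of all genes. With age as a factor the p of Gria2 was 0.0798, with a difference of -0.15, and 0 members were under 0.05. Of the Grn+/- hTDP- mice, only those of 9.44 and 10.79 months bear on this difference in that fit.

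Markers also differed in value between these hTDP- groups, with 0 called. All 7 tested deep layer projection neuron markers were below 0 in Grn+/- hTDP- mice (median -0.16), with sums of 452 to 592 CPM against 484 to 740 in Grn+/+ hTDP- mice. All 8 astrocyte markers (median 0.11, sums of 904 to 1248 against 918 to 993 CPM), all 10 oligodendrocyte markers (median 0.36) and all 9 mural and meningeal markers (median 0.37) were above 0. All 5 blood cell genes were above 0 as well (median 1.26, with 3 at an unadjusted p under 0.05), with sums of 10.96 to 150.3 against 11.1 to 30.8 CPM. The median sum of blood cell genes was 18.03 CPM in Grn+/- hTDP- and 20.2 CPM in Grn+/+ hTDP- mice. For oligodendrocyte markers it was 1651 and 1712 CPM in the same order. The positive estimates for blood cell genes and oligodendrocyte markers were thus not shared by the median. No deep layer, astrocyte, oligodendrocyte, mural and meningeal or blood cell gene read here was at 0 in either group. Excitatory neuron markers were split, with 5 of 10 below 0. The part of these markers in the values of Gria2 and the other receptor genes was not tested.

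With the transgene present in both groups, loss of a Grn copy left 0 of 26 members called beside 0.00548% of all genes, and 0 with an unadjusted p under 0.05 by any of the 3 tools, beside 2.03% of all genes lower at that level. Gria2 overlapped here, with 492.7 through 555.8 to 599.8 CPM in Grn+/+ hTDP+ and 495.2 through 535.7 to 602.7 CPM in Grn+/- hTDP+ mice. The 5 members of smallest p were Grin2c at 0.092, Grik5 at 0.077, Grik3 at -0.15, Gria3 at -0.046 and Gabrd at 0.075, all with an edgeR adjusted p of 0.989. Below 0 were 14 members, beside 48.6% of all genes.

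Averaged over both transgene states, 0 of 26 members were called for the Grn genotype beside 0.0219% of all genes. Gria2 had the smallest p (unadjusted 0.0362, adjusted 0.926), with a log2 difference of -0.075 (95% CI -0.15 to -0.0053), and was the 1 member with an unadjusted p under 0.05 by each of the 3 tools, beside 2.73% of all genes lower at that level. It averaged 539 ± 27.9 CPM in the 12 Grn+/- and 568 ± 35.9 CPM in the 12 Grn+/+ mice. Without Grn+/+ hTDP+ replicate 2, 2 members had such a p, and Gria2 differed by -0.083 (adjusted p = 0.840). Gria3 (-0.066), Grin2c (0.082), Gabra5 (-0.10) and Grik5 (0.059) followed. The p of Gria2 was 0.0591 with age as a factor, which again uses few Grn+/- hTDP- mice, and 0.0557 with length-scaled TPM counts. All 4 AMPA genes were below 0, while 5 of 7 NMDA genes were above 0. Over all members 16 were below 0 with a median of -0.025, beside 46.5% of all genes.

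**Figure D3:**
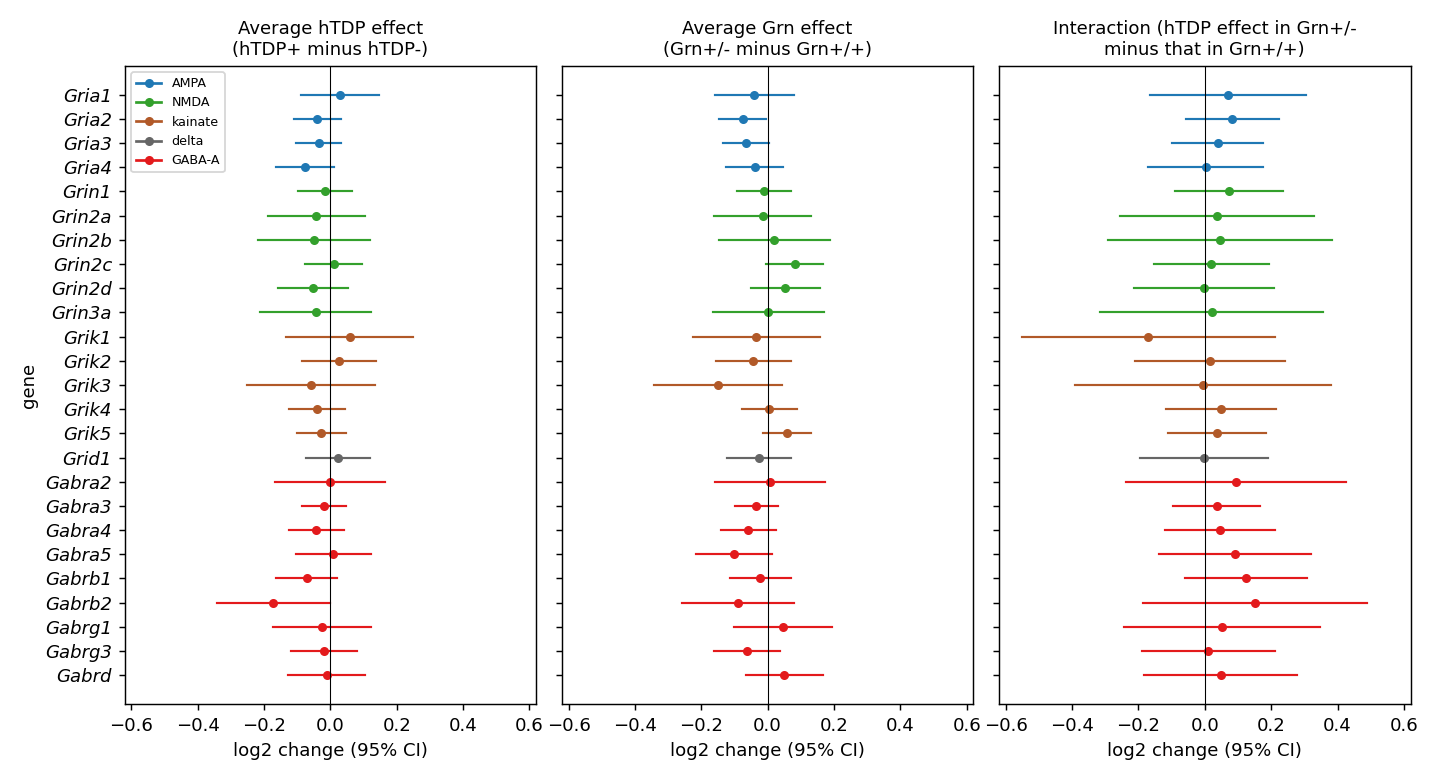
Log2 change and 95% CI (edgeR) of 25 receptor genes for the transgene effect averaged over Grn genotypes, the Grn effect averaged over transgene states, and their interaction, coloured by family; Gabra6 was not tested and Grin3b, with near-zero counts, is left out. Most intervals cross 0; those that do not are Gabrb2 in the first panel and Gria2 in the second.

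The test of whether the transgene effect differed between Grn genotypes called 0 members and 0% of all genes. No member had an unadjusted p under 0.05 by the 3 tools, beside 1.86% of all genes lower at that level. Gabrb1 had the smallest p (0.178), with an interaction of 0.12 (95% CI -0.060 to 0.31) on the log2 scale. Gria2 followed at 0.083, Grin3b at -0.83 from near-zero counts, Gabrb2 at 0.15 and Grik1 at -0.17, all with an edgeR adjusted p of 1.0. Of the members 5 were below 0, with a median of 0.038, beside 48.9% of all genes. This follows from the pair of transgene comparisons above, and the 95% CI of the 25 members other than Grin3b ran from -0.55 (Grik1) to 0.49 (Gabrb2), so the precision for an interaction was lower than for the averages.

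Mice with both changes against mice with neither gave 0 called members beside 0.0768% of all genes. Unadjusted p was under 0.05 for 3 members by edgeR, DESeq2 and limma voom, all lower, beside 5.54% of all genes lower at that level. Gria2 ran from 495.2 through 535.7 to 602.7 CPM with both changes and from 562.2 through 576.6 to 616.8 CPM with neither, a log2 difference of -0.11 (edgeR adjusted p = 0.470). Gabrb2 differed by -0.26 (0.486) and Gria3 by -0.10 (0.510), and Gria4 (-0.12) and Gabra4 (-0.10) came next. In all 5 genes the groups overlapped. The comparison uses the same mice as those above and adds no independent measurement. The smallest adjusted p of any member under another setting was 0.151, for Gria2 in this comparison by DESeq2, with a difference of -0.12.

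Between the sexes, over all groups, 0 of 26 members were called beside 0.0713% of all genes. Grin2a was the 1 member with an unadjusted p under 0.05 (0.0456) by edgeR, and by DESeq2 there was also 1 and by limma voom 0, beside 2.92% of all genes lower in males at that level. It ran from 147.6 through 181.8 to 230.7 CPM in 12 females and from 153.9 through 167.5 to 204 CPM in 12 males, with a male minus female log2 difference of -0.15 (edgeR adjusted p = 0.823). Gabra3, on chromosome X, differed by 0.048, Grin2b by -0.12, Gria4 by -0.051 and Gabrg3 by -0.054.

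Genes that work with the receptors were read from 7 lists of 70 genes, of which 69 were tested and 0 were called in any of the 9 comparisons. In the average transgene effect 52 of the 69 were below 0, beside 48.4% of all genes, a share that also stands beside the counts by list. An unadjusted p under 0.05 was found for 9, all lower, beside the 4.24% given above. Among AMPA receptor auxiliary subunits, which control trafficking and gating, 7 of 14 were below 0, and Shisa9 (-0.093) and Frrs1l (-0.12), an AMPA receptor assembly factor, had the smallest p (edgeR adjusted p = 0.606 and 0.622). Both kainate and NMDA auxiliary subunit genes were below 0, with Neto2 at -0.10 and Neto1 at -0.044.

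Of 20 excitatory postsynaptic scaffold genes 17 were below 0 (median -0.042), led by Dlgap1 (-0.061) and Dlg2 (-0.072), with edgeR adjusted p of 0.622 and 0.627. Of 9 inhibitory scaffold genes 6 were below 0 (median -0.015), with Gabarap at 0.056. Of 9 tested metabotropic glutamate and GABA-B receptor genes 8 were below 0 (median -0.056), with Gabbr2 at -0.10 and Grm2 at -0.13. Of 12 genes for the synthesis and transport of both transmitters 9 were below 0 (median -0.036). All 3 genes of the family of RNA editing enzymes, Adar, Adarb1 and Adarb2, were below 0 (median -0.070). Adar was at -0.056 (edgeR adjusted p = 0.588) and Adarb1, whose product edits the Gria2 transcript, at -0.10 (0.628). Whether Adarb2 acts as an editor was not examined. None of these differences passed the test.

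Transcript use within a gene was the other readout. The 27 genes had 137 annotated transcripts, all of them in the files, and 15 genes had at least 2 transcripts with 5% or more of the gene's reads that passed the count filter. By edgeR's likelihood-ratio fit with its diffSpliceDGE function, 0 of 15 were called for the average transgene effect beside 0.165% of 7876 genes, 0 for the average Grn effect beside 0.0381%, and 0 for the interaction beside 0.0127%. For the transgene the smallest unadjusted p were those of Gria2 (0.224), Grin1 (0.601) and Gabra5 (0.743), for Grn those of Grin1 (0.413), Grin3a (0.424) and Gabrg1 (0.475), and for the interaction those of Grin2c (0.256), Gria1 (0.491) and Grik5 (0.498). No member had an unadjusted p under 0.05 at this setting. Without Grn+/+ hTDP+ replicate 2, the p of Grin1 for the Grn effect was 0.00797 in place of 0.413, with an adjusted p of 1.0, so that value depended on this library.

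Flip and flop shares differed between the AMPA genes more than between groups, as ranges show. The share is the TPM of transcripts with flip over that of transcripts with either exon, leaving out the 2 transcripts that hold both. Flip made up 37.5% ± 4.34 (SD, n = 24) in Gria1, 70.9% ± 2.87 in Gria2, 89.3% ± 2.75 in Gria3 and 23.1% ± 3.81 in Gria4. The ranges of Gria1 (29.9% to 44.8%), Gria2 (63.1% to 75.8%) and Gria3 (84.5% to 94.9%) did not overlap each other. Gria4, at 15.6% to 30.5%, overlapped Gria1 only narrowly. Its flip transcript held 3.16 to 6.57 TPM and its flop transcripts 11.9 to 19.4 TPM per library, against a gene mean of 50.0 TPM. The Gria4 flip share thus leaves out much of that gene's TPM, which fell on a transcript with neither exon. The printed exons are 115 bases of much longer transcripts, which also differ elsewhere, so these shares rest on how Salmon divided reads along the whole transcript.

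Group means of the Gria2 flip share were 72.2% ± 1.65 (SD, n = 6) in Grn+/+ hTDP-, 70.2% ± 2.82 in Grn+/+ hTDP+, 71.7% ± 2.30 in Grn+/- hTDP- and 69.4% ± 4.0 in Grn+/- hTDP+ mice. All 4 groups overlapped. In Gria3 they were 87.6% ± 2.48, 89.6% ± 2.37, 88.7% ± 2.61 and 91.3% ± 2.69 in the same order, also overlapping. Gria3 had 1 transcript above the 5% limit and was not in the usage test.

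In Grin1 the N1 exon was in 12.2% ± 4.12 (SD, n = 24) of the TPM, the C1 exon in 56.7% ± 3.40, and the longer form of the last exon, which codes for the C2 tail, in 56.8% ± 1.49. The N1 share ran from 6.55% to 22.1%. The C1 group means were 56.5% ± 3.11 in Grn+/+ hTDP-, 56.9% ± 4.03 in Grn+/+ hTDP+, 55.4% ± 2.34 in Grn+/- hTDP- and 57.8% ± 4.28 in Grn+/- hTDP+ mice, all overlapping. Exons of Grin1 share 1307 bases with Grin1os on the opposite strand. The labels describe both strand-keeping and other library steps, so which reads came from the antisense gene is unclear.

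**Figure D4:**
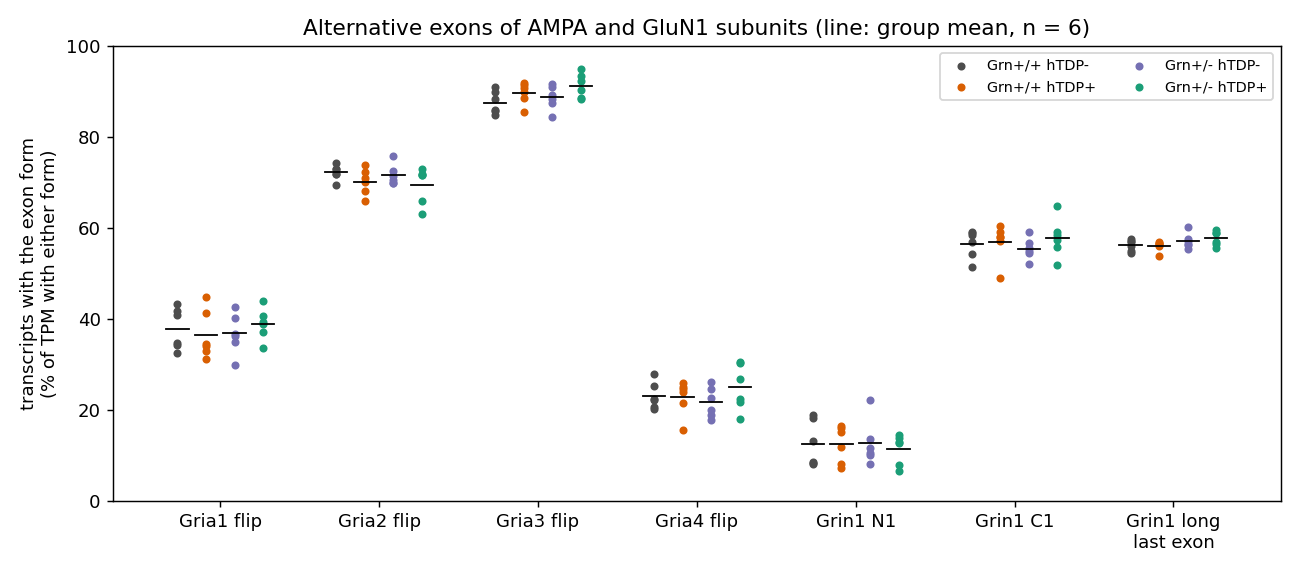
Share of TPM from transcripts that hold the named exon form, in each of 24 mice (points) by group, with group means as lines. Gria3 and Gria2 lie highest, Gria4 and Grin1 N1 lowest, and the 4 groups overlap for every exon shown.

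Other genes had settled or split transcript use. A single transcript took 97.6% ± 0.468 (SD, n = 24) of the reads of Grin2a, 99.97% ± 0.0262 of Grin2b, 99.0% ± 0.304 of Gabra3, 98.9% ± 0.253 of Gabrb2 and 99.7% ± 0.167 of Gabrb1. Grik2 was split, with 47.5% ± 3.42 and 33.1% ± 3.10 in its leading pair of transcripts, as were Gabra5 (50.9% ± 2.11 and 41.0% ± 2.20) and Grin2c (61.0% ± 6.50 and 39.0% ± 6.50). In Gria4, Gria4-201 held 39.9% ± 6.39 and Gria4-203, which has neither the flip nor the flop exon, 37.9% ± 3.68.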

How the data were processed

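Frontal cortex of 24 mice in 4 groups of 6 was measured by RNA sequencing. For each library the authors deposited Salmon output for 149444 transcripts, 1 of them human. Columns, per the file headers, are the deposited expected counts, TPM and effective lengths. STAR, SAMtools, Salmon and DESeq2 are named in the submitters' processing notes, without versions; neither build nor annotation is given in the sources used here. Transcripts were placed in genes by GENCODE M21 of GRCm38 (92.4% matched; the rest, apart from the human transcript, held 1.17% to 1.66% of a library's reads and was left out). Expected counts were summed per gene, rounded and tested with edgeR 4.0.16 in R 4.3.3 (quasi-likelihood, two-sided, TMM, filterByExpr; terms for group and sex over all 24 libraries; Benjamini-Hochberg over 18239 genes, threshold 0.05). Usage was tested on transcripts with at least 5% of their gene. DESeq2 1.42.0, limma 3.58.1, other scalings, filters, covariates and sample sets were alternatives. In each comparison the 5 members of smallest p are named (3 for usage, 2 per list), besides the 5 of highest TPM and those near 0. Some list genes that this rule names are not reported here. Members and lists were chosen with earlier results of these data known. Scripts were tested on simulated data. Depth was 61445842 to 100859149 reads per library; p-values measure the spread between mice.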

Additional observations from a re-analysis of the deposited data

Results flagged for a closer look

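Within a group of 6 mice, a value was marked when its gap to the nearest other mouse, as a share of the group's range, exceeded Dixon's 95% critical value, which chance alone does in about 1 in 20 groups. Of 144 groups looked at, 108 of gene CPM and 36 of exon shares, 12 were marked. The library of Grn+/+ hTDP+ replicate 2, which listed far fewer transcripts than the others, accounted for 3 of them: Grin2d at 19.0 CPM against 22.8 to 24.8 in the other mice of its group, the Grin1 C1 exon at 49.05% against 57.0% to 60.5%, and the longer last exon of Grin1 at 53.9% against 55.9% to 56.9%.

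In Grn+/- hTDP- mice, replicate 6 was high in Gabrb2 (186.7 CPM against 140.2 to 152.9) and in Gabrd (75.4 CPM against 57.4 to 60.9), and replicate 5 was high in Gabra3 (210.5 CPM against 169.0 to 183.9). In Grn+/- hTDP+ mice, replicate 6 was high in Gabra2 (70.5 CPM against 45.2 to 52.8) and low in Gabra5 (53.3 CPM against 69.9 to 77.9). In Grn+/+ hTDP- mice, replicate 6 was high in Grik1 (15.2 CPM against 9.94 to 11.3), and replicate 4 was high in Grin3b (0.226 CPM against 0.0466 to 0.0956). Gabra6 was marked at 0.179 CPM in Grn+/+ hTDP- replicate 2, where the other mice had at most 0.0148, and at 0.0484 CPM in Grn+/- hTDP- replicate 2, where the others had at most 0.0154; Gabra6 and Grin3b rest on few reads. No cause was tested.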

How the results depend on the processing

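Under DESeq2, limma voom, RLE scaling, no filter on low counts, a filter of 1 CPM in 6 libraries, length-scaled TPM counts, no term for sex, age as a linear term or as a factor, leaving out Grn+/+ hTDP+ replicate 2, and fitting the 2 groups compared alone, all 94 counts of called members stayed at 0, as did 15 counts for transcript use. The number of members below 0 was 16 to 20 against 19 for the average transgene effect, 10 to 18 against 16 for the transgene in Grn+/- mice and 3 to 8 against 5 for the interaction. Of 469 values of named members under these settings, 467 kept their direction. The others were Gabra5 for the transgene in Grn+/- mice with age as a factor (-0.0171) and Grin3b for the interaction by limma voom (0.0168); the cause was not tested. The 2 unadjusted p under 0.05 for the transgene in Grn+/+ mice were both above 0.05 without replicate 2 and with age as a factor, and 1 was with the 1 CPM filter and with length-scaled TPM counts. That of Gabrb2 for the average transgene effect was above it without replicate 2, with either age term and with length-scaled TPM counts. Those of Gria2 for the Grn genotype were above it with age as a factor and, for the average, with length-scaled TPM counts. Other settings gave more such p. For Grn without the transgene there were 4 with only the 2 groups fitted and 2 with linear age, against 1. For the average Grn effect there were 2 with linear age, against 1. For both changes against neither there were 4 with no filter and with length-scaled TPM counts, against 3. Over all genes, calls for the average transgene effect went from 20 to 2 with age as a factor. Ages were shared only in part between groups, and this fit compares groups only among mice of the same age. Grn+/- hTDP- mice of 10.56, 9.14 and 8.19 months had no match in another group and add nothing to its group differences. The p-values of this fit thus rest on fewer mice of that group and do not tell an effect of age from lower precision. With transcripts of at least 1% of their gene, the unadjusted usage p of Grik1 for the transgene was 0.0308 (adjusted p = 1.0). Leaving out other single mice was not run. No paired analysis was possible because the numbers in the labels name animals and no number is shared between groups, and the labels do not give litters. The median standard error of a member's log2 change was 0.0745 for the transgene in Grn+/+ mice. It was 0.0527 for the average transgene effect and 0.105 for the interaction. Many member differences were no larger than these.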
